A study of Mus musculus with 6 samples.

Results

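The splicing factor genes described here are the SR proteins, the hnRNP proteins, the subunits of SF3a and SF3b, the subunits of U2AF and the proteins of the small nuclear ribonucleoprotein particles (snRNPs). They were taken by gene symbol from the probe sets that name a single gene. Family members without such a probe set, among them Srsf5, Srsf7, Hnrnpu, Hnrnpf and Hnrnph3, are not covered. A gene with several probe sets was represented by the one with the highest mean over the 6 arrays. This gave 49 genes of 17097, namely 9 SR proteins, 17 hnRNP proteins, 9 SF3 subunits, 2 U2AF subunits and 12 snRNP proteins.

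The cells came from blood of female C57BL/6 mice of 6 to 8 weeks. A group of 6 such females had received 3 mg of the progestin Depo-Provera, 5 days before euthanasia by the sample labels, and the arrays carry cells of the 3 mice labelled A, C and D. CD3+ CD62L- CD44high T cells of each mouse were divided by flow cytometry on CD11c, giving a positive and a negative fraction, and 300 cells of each went to a single array. The comparison asks how T cells that carry the integrin CD11c differ from other activated T cells of the same mouse. Both fractions share the strain, the sex, the hormone treatment and the gate on activated cells. Each sample is a small bulk sample, so that fewer cells of a type and less RNA per cell cannot be told apart.

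Splicing removes introns from pre-mRNA. The U1 snRNP marks the start of an intron, U2AF binds the pyrimidine tract and the AG at its end, and the U2 snRNP with SF3a and SF3b holds the branch point. SR proteins bind exons and recruit this machinery, whereas many hnRNP proteins bind exons or introns and hold it off, and the balance between the groups sets which exons are kept. T cells are known for changing exon use on activation, the best studied case being CD45, whose variable exons are skipped in memory cells under the influence of hnRNPLL.

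Some sequence features that the choice by symbol did not use were more frequent in the members than in all genes. Upstream sequence from RefSeq (build GRCm38.p6), taken as the 250 bases before the first listed start of a gene, was matched for 42 of the 49 members and for 27025 genes in all. The median share of G and C was 60.6% in the members and 52% in all genes. The letters CCGGAA, the core to which ETS factors bind, stood on either strand in 18 of 42 members (42.9%) and in 12.2% of all genes. GGGCGG, the core of the GC box, stood in 29 (69%) against 32.9%, CCAAT in 22 (52.4%) against 34.5%, and TATAAA in 5 (11.9%) against 13%. The motifs can share at most 2 letters at their ends. A match is a description of the sequence and not of binding. The set of all genes holds genes whether or not these cells express them. The shares in expressed genes alone were not taken, so these features may not be particular to splicing factors.

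The SR and SF3 genes with the lowest and the highest log2 difference between the fractions that are above background and have a window are shown as examples, with the last 120 bases before the start, 5′ to 3′ on the strand of the gene. Capitals mark CCGGAA and GGGCGG on either strand.
Srsf11 (chr3:158036607-158036726, minus strand): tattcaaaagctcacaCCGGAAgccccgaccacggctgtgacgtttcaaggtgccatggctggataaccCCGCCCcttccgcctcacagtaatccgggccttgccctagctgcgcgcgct
Srsf9 (chr5:115327057-115327176, plus strand): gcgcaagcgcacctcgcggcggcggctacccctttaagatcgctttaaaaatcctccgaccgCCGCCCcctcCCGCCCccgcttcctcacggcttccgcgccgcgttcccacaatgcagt
Sf3a1 (chr11:4160234-4160353, plus strand): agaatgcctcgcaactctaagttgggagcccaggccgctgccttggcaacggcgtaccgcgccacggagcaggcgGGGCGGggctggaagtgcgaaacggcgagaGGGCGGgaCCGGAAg
Sf3b2 (chr19:5295458-5295577, minus strand): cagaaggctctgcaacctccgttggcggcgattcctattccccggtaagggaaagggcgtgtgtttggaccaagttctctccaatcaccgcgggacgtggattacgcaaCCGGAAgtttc
Srsf11 and Sf3a1, with the lowest differences, each hold both motifs here. Of those with the highest, Srsf9 holds GGGCGG on the opposite strand and Sf3b2 holds CCGGAA. With a single gene in each place, nothing follows from these letters about the differences.

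The labels were checked first. Itgax, which encodes CD11c, had log2 values of 5.80, 3.88 and 4.12 in the CD11c- cells of mice A, C and D and of 8.93, 9.06 and 8.93 in their CD11c+ cells. Cd3e, a chain of the T cell receptor complex, had 11.06, 11.12 and 11.13 in CD11c- and 10.56, 10.67 and 10.60 in CD11c+ cells. The mean level of 15 T cell markers lay between 9.53 and 9.74 on the CD11c- arrays and between 8.53 and 8.91 on the CD11c+ arrays. Markers of several other cell types moved with the fraction as well. The mean level of 20 monocyte and macrophage markers lay between 5.43 and 5.52 in CD11c- and between 7.96 and 8.31 in CD11c+ cells, and that of 13 basophil and mast cell markers between 3.72 and 3.97 and between 7.39 and 8.11. For 12 dendritic cell genes, Itgax among them, these ranges were 4.65 to 5.11 and 8.19 to 8.61. For 10 NK cell genes they were 6.74 to 6.75 and 8 to 8.31, and for 11 B cell genes 4.65 to 5.22 and 5.69 to 6.85. For 8 neutrophil genes the ranges were 3.63 to 4.06 and 4.55 to 4.58. Their median log2 difference was -0.02, with single genes from -0.19 to 3.56. For 6 erythroid and platelet genes the ranges were 5.24 to 6.47 and 6.16 to 6.94. Their median log2 difference was 0.37, with single genes from -0.06 to 2.30. The part of these cell types in the values of the splicing factors was not tested. Background was set at a log2 value of 5.61, under which lay 95% of 37 genes known from tissues other than blood.

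None of the 49 splicing factor genes was called higher or lower in CD11c+ cells. In limma with the mouse as a block, 0 passed an adjusted p of 0.05 in either direction, where 1.4% of all genes were called higher and 0.222% lower. At an unadjusted p under 0.05 the members counted 2 higher and 5 lower, against 7.38% and 7.44% of all genes (2 of 49 are 4.08% and 5 of 49 are 10.2%). The smallest difference called on any probe set of the array was 1.12 on the log2 scale, and Hnrnpll was the only member whose difference exceeded 1. The absence of calls is thus no measure of sameness, and the intervals of the differences are given instead.

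The differences were small and centred near that of all genes. The median log2 difference, CD11c+ minus CD11c-, was -0.10 over the 49 members and -0.09 over all genes, with member quartiles of -0.28 and -0.02. Of the members, 37 had a difference below 0 (75.5%), as did 66.1% of all genes and 60.2% of the 6167 genes above background in both fractions. After cyclic loess normalization, which moved the median of all probe sets from -0.089 to -0.007, 27 members were below 0 and their median was -0.01. With arrays centred on their median, 36 members were below 0 and the median of all probe sets was -0.06. The number of members below 0 thus depends on the normalization chosen. The share of all genes below 0 after cyclic loess was not taken, so the members' excess over it is not known. The members' differences lay within 0.2 of 0 for 27 genes and within 0.5 for 44.

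The 95% interval of the difference, taken from limma for each gene and not adjusted for their number, lay wholly within 1 of 0 for 43 of the 49 members (87.8%), so that a 2-fold change was outside it. The same held for 74.4% of all genes and for 64.8% of those above background in both fractions. The intervals of Hnrnpll, Hnrnpa0, Sf3a1, Sf3a3 and Snrpa1 reached below -1, and that of Snrpf reached above 1. These intervals hold for the probe set that represents each gene, and that of Srsf12, which was below background, says nothing about its expression. Of 42 other probe sets of the members above background in both fractions, 11 had an interval that reached a 2-fold change, in Srsf1, Srsf2, Srsf3, Hnrnpa2b1, Hnrnpdl, Hnrnpul2, Snrpa1 and Snrpd3.

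**Figure D1:**
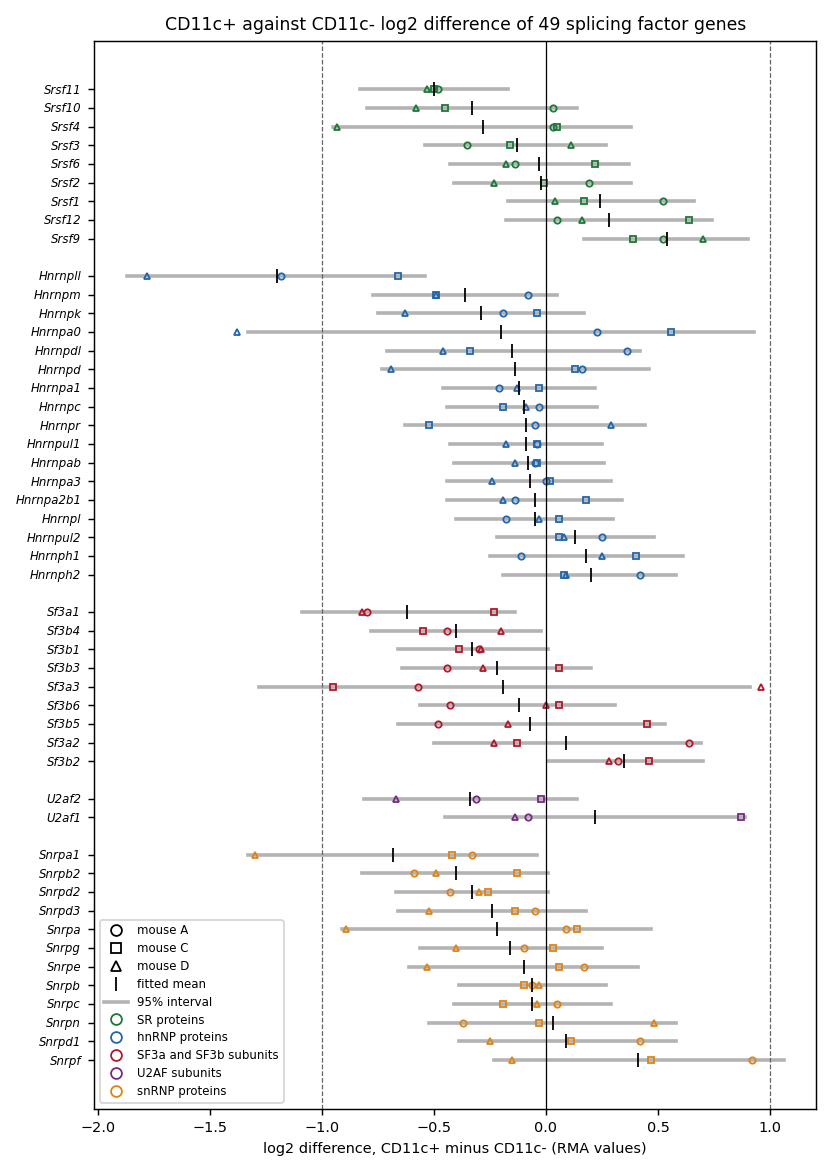
Log2 difference between CD11c+ and CD11c- cells (horizontal axis) of each of the 49 splicing factor genes (vertical axis, grouped by role and sorted by difference). Open symbols give mice A, C and D, black ticks the fitted mean and grey bars its 95% interval, with dashed lines at -1 and 1. Most bars end within the dashed lines and cross 0, while Hnrnpll lies lowest at -1.20.

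The spread around these centres was narrower than that of other expressed genes. Of the 49 members, 1 differed by more than 1 on the log2 scale (2.04%), against 6.57% of the genes above background in both fractions. The median size of the difference was 0.19 over the members and 0.26 over those genes. The members were also brighter, with median levels of 8.22 in CD11c- and 8.07 in CD11c+ cells, against 7.31 and 7.27 for those genes. The median standard error was 0.157 in the members and 0.187 in those genes. Of 143 other splicing genes 0 differed by more than 1, with a median size of 0.23. The part of level and noise in the narrower spread was not tested. All members but Srsf12 were above background in both fractions, whereas this was so for 36.1% of all genes. These shares describe the lists and were not tested against each other.

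**Figure D2:**
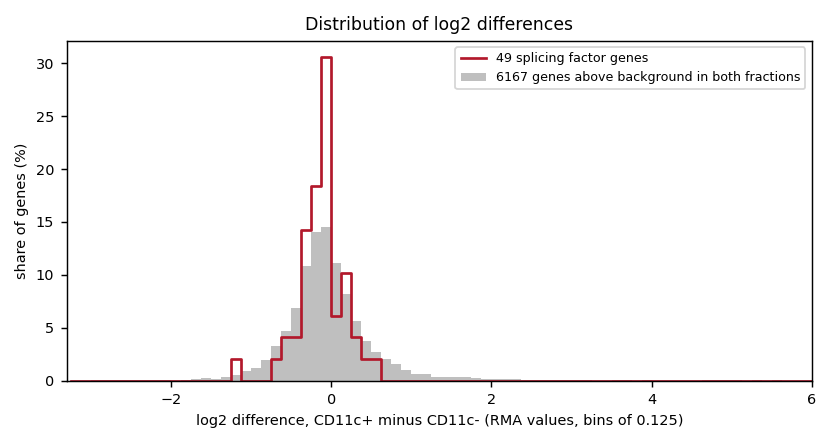
Share of genes in percent (vertical axis) by log2 difference between CD11c+ and CD11c- cells (horizontal axis, bins of 0.125). The red line gives the 49 splicing factor genes, Srsf12 among them, and grey bars the 6167 genes above background in both fractions. The members keep within -1.20 and 0.54, whereas the grey bars reach from -2.98 to 5.62.

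More members were lower in mouse D than in the other mice. Its CD11c+ array was below its CD11c- array for 38 of the 49 members (77.6%), as against 31 in mouse A (63.3%) and 26 in mouse C (53.1%). Of all genes 53% were lower in mouse D, 68.2% in mouse A and 56.5% in mouse C, and of the genes above background in both fractions 55.3%, 56.7% and 57.1%. The members' median difference was -0.20 in mouse D, -0.06 in mouse A and -0.02 in mouse C, against -0.08, -0.07 and -0.08 for the genes above background in both fractions. In mouse D 13 members had a difference below -0.5 (26.5%), a share close to the 24.2% of the genes above background in both fractions. In mice A and C the members counted 4 (8.16%) and 5 (10.2%), against 19.4% and 20% of those genes. Members moved the same way in 3 of 3 mice in 17 cases for lower and 6 for higher values, with 26.5% and 12.6% of all genes doing so.

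The fractions overlapped for 39 of the 49 members. All 3 CD11c+ arrays lay below all 3 CD11c- arrays for 8 members (16.3%), namely Srsf11, Hnrnpll, Hnrnpul1, Hnrnpab, Sf3b1, U2af2, Snrpa1 and Snrpd3, where 12.5% of all genes did so. They lay above for 2 members (4.08%), Srsf9 and Srsf12, against 7.48% of all genes. Over all probe sets the shares were 12.5% below and 6.4% above. The members' share below was somewhat over these backgrounds and their share above somewhat under them. Of the genes above background in both fractions 13.6% lay below and 9.52% above. Of the 48 members above background in both fractions, 16.7% lay below and 2.08% above. These shares rest on few genes and were not tested against each other.

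Among the SR proteins, by their representing probe sets, Srsf11 had the lowest and Srsf9 the highest difference between CD11c+ and CD11c- cells. Srsf11, an SR-related protein, had log2 values of 8.06, 8.28 and 8.35 in CD11c- and 7.58, 7.77 and 7.83 in CD11c+ cells of mice A, C and D. The fractions did not overlap, and the 3 mice gave nearly the same difference, from -0.48 to -0.53. The log2 difference was -0.50 (standard error 0.123, 95% interval -0.83 to -0.17, adjusted p = 0.195 from limma, 0.132 to 0.533 over the alternatives). Its other 2 probe sets, both below background, lay at 0.18 and -0.32, and averaging all 3 gave -0.21, above the -0.42 of Srsf1 averaged in this way. Srsf9, an SR protein with a short RS tail, had 6.34, 6.16 and 6.07 in CD11c- and 6.85, 6.55 and 6.77 in CD11c+ cells. It was higher in 3 of 3 mice without overlap, with a log2 difference of 0.54 (standard error 0.137, 95% interval 0.17 to 0.90, adjusted p = 0.21, 0.121 to 0.478 over the alternatives).

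Srsf1, the founding member of the family, had 6.36, 6.5 and 7.24 in CD11c- and 6.87, 6.68 and 7.28 in CD11c+ cells, and the fractions overlapped although each mouse was higher. Srsf10, which turns into a repressor of splicing when dephosphorylated, had 9.04, 9.38 and 9.58 in CD11c- and 9.08, 8.93 and 9.0 in CD11c+ cells, lower in mice C and D only. Srsf4 had 8.68, 8.32 and 8.87 in CD11c- and 8.71, 8.38 and 7.95 in CD11c+ cells. Its log2 difference of -0.28 thus came from mouse D, and without that mouse it was 0.04. Srsf2, which binds exonic enhancers and is also a component of nuclear speckles, had 8.57, 8.54 and 8.45 in CD11c- and 8.77, 8.53 and 8.22 in CD11c+ cells. Srsf3, the smallest SR protein, had 8.68, 7.91 and 8.06 in CD11c- and 8.33, 7.75 and 8.17 in CD11c+ cells. For both genes the mice differed in direction. Srsf6 lay at -0.03 with a 95% interval of -0.43 to 0.37. Srsf12 had 2.56, 2.44 and 2.48 in CD11c- and 2.61, 3.08 and 2.64 in CD11c+ cells, far below the background level, so its lack of overlap is no measure of expression.

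Most of the hnRNP genes covered here were close to even by their representing probe sets, and Hnrnpll stood apart as the lowest. Hnrnpll encodes the regulator of CD45 exon skipping in T cells and had log2 values of 6.96, 7.38 and 7.31 in CD11c- and 5.79, 6.72 and 5.53 in CD11c+ cells of mice A, C and D. The fractions did not overlap, and in mouse D the CD11c+ value fell under the background level. The log2 difference was -1.20 (standard error 0.249, 95% interval -1.87 to -0.54), a 2.3-fold lower signal in CD11c+ cells, with an adjusted p of 0.147 in limma (0.0657 to 0.388 over the alternatives). Without a mouse in turn it ran from -1.48 to -0.92. The other probe set of Hnrnpll had 4.54, 4.0 and 4.41 in CD11c- and 3.43, 3.21 and 2.83 in CD11c+ cells, below background in both fractions, with a log2 difference of -1.16 (adjusted p = 0.105). Ptprc, which encodes CD45, had 9.46, 9.61 and 10.48 in CD11c- and 9.34, 9.43 and 9.86 in CD11c+ cells, a difference of -0.31 (adjusted p = 0.528 in limma) with overlap. These values give the level of the gene and not the use of its exons. The T cell markers were lower in CD11c+ cells as well, with a median difference of -0.72 over 15 genes and a range from -1.85 to -0.47, and the part of T cell RNA in the Hnrnpll value was not tested.

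Hnrnpm, Hnrnpk and Hnrnpa0 followed Hnrnpll in the order of differences, at -0.36, -0.29 and -0.20. Hnrnpm had 8.30, 8.07 and 8.91 in CD11c- and 8.21, 7.58 and 8.42 in CD11c+ cells. Hnrnpk, which binds runs of C, had 8.65, 8.19 and 9.17 in CD11c- and 8.45, 8.15 and 8.54 in CD11c+ cells. Both were lower in 3 of 3 mice with overlapping fractions. Hnrnpa0 had 6.36, 6.62 and 7.93 in CD11c- and 6.60, 7.18 and 6.54 in CD11c+ cells. Its CD11c- value of mouse D set the sign, and without that mouse the difference was 0.40.

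At the upper end, Hnrnph2, which like Hnrnph1 binds runs of G, had 6.61, 6.54 and 7.10 in CD11c- and 7.02, 6.62 and 7.19 in CD11c+ cells. Hnrnph1 had 7.72, 7.67 and 8.28 in CD11c- and 7.61, 8.07 and 8.53 in CD11c+ cells. Hnrnpul2 had 7.54, 7.39 and 7.50 in CD11c- and 7.79, 7.45 and 7.59 in CD11c+ cells. The fractions of all 3 genes overlapped and the differences were 0.20, 0.18 and 0.13. Hnrnpl, which also binds the variable exons of CD45 and is the closest relative of Hnrnpll, had 10.21, 10.30 and 10.13 in CD11c- and 10.03, 10.36 and 10.10 in CD11c+ cells, a difference of -0.05 with a 95% interval of -0.40 to 0.30.

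Some of the abundant hnRNP proteins that coat nascent RNA, such as Hnrnpa1 and Hnrnpab, gave tight values by their representing probe sets. Standard errors of the other probe sets were 0.124 and 0.188 for Hnrnpa1, and 0.169, 0.137 and 0.219 for those of Hnrnpab above background. Hnrnpa1, an antagonist of SR proteins, had 9.77, 9.89 and 9.82 in CD11c- and 9.57, 9.86 and 9.69 in CD11c+ cells. Hnrnpab had 12.09, 12.12 and 12.15 in CD11c- and 12.04, 12.08 and 12.01 in CD11c+ cells, fractions that did not overlap at a difference of only -0.08. Hnrnpc, Hnrnpa2b1, Hnrnpa3, Hnrnpd, Hnrnpdl, Hnrnpr and Hnrnpul1 had differences between -0.15 and -0.05 by their representing probe sets. Of these, Hnrnpd, Hnrnpdl and Hnrnpr were less tight, with standard errors of 0.224, 0.211 and 0.2 against a member median of 0.157. Another probe set of Hnrnpr, above background in CD11c- cells only, lay at -0.92 (adjusted p = 0.346 in limma). For Hnrnpa3 the other probe sets, all above background, lay at -0.08, 0.08 and -0.50. The last of these was lower in 3 of 3 mice without overlap (adjusted p = 0.278 in limma). Hnrnpul1, Hnrnpab, Hnrnpa3, Hnrnpa2b1 and Hnrnpl were near enough to 0 that they changed sign after cyclic loess.

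The SF3 complexes hold the branch point within the U2 snRNP. Of their 9 subunits 7 had a difference below 0, with a median of -0.19, and Sf3a1, Sf3b4 and Sf3b1 were lower in 3 of 3 mice. Sf3a1, the largest SF3a subunit, had 6.49, 6.88 and 7.22 in CD11c- and 5.70, 6.65 and 6.39 in CD11c+ cells. The fractions overlapped, and the log2 difference was -0.62 (standard error 0.179, 95% interval -1.09 to -0.14, adjusted p = 0.26 in limma). Sf3b1, the scaffold of SF3b and a gene often mutated in myelodysplasia, had 11.16, 11.17 and 11.25 in CD11c- and 10.86, 10.78 and 10.96 in CD11c+ cells. The fractions did not overlap, with a difference of -0.33 (standard error 0.125, adjusted p = 0.381, 0.0538 to 0.773 over the alternatives, the lowest with a trended variance). The next probe set of Sf3b1 had 10.70, 10.47 and 10.20 in CD11c- and 10.20, 10.20 and 10.07 in CD11c+ cells, a difference of -0.30 with fractions that met at 10.2.

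Sf3b4 had 7.60, 7.23 and 7.11 in CD11c- and 7.16, 6.67 and 6.91 in CD11c+ cells, a difference of -0.40 with overlap. Sf3b2 went the other way, with 7.90, 7.94 and 7.37 in CD11c- and 8.22, 8.39 and 7.65 in CD11c+ cells. It was higher in 3 of 3 mice by 0.28 to 0.46, with overlapping fractions and an adjusted p of 0.357 in limma. Its other 3 probe sets had differences of -0.01, -0.22 and -0.02, so the direction of that probe set was not shared. Sf3a3 had 7.71, 8.45 and 6.94 in CD11c- and 7.13, 7.51 and 7.90 in CD11c+ cells, with mouse D opposite to the others. Sf3a2 had 5.62, 6.54 and 6.46 in CD11c- and 6.26, 6.41 and 6.24 in CD11c+ cells.

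Of the other subunits, Sf3b3 had 7.70, 7.58 and 7.96 in CD11c- and 7.26, 7.64 and 7.68 in CD11c+ cells. Sf3b5 had 8.83, 7.95 and 8.14 in CD11c- and 8.35, 8.40 and 7.97 in CD11c+ cells. In both genes mouse C was higher and mice A and D lower. Sf3b6, which contacts the branch point adenosine, had 8.46, 8.34 and 8.60 in CD11c- and 8.02, 8.40 and 8.59 in CD11c+ cells, a difference of -0.12 with a 95% interval of -0.56 to 0.31. Another of its probe sets, above background, lay at -0.55, lower in 3 of 3 mice with overlap (adjusted p = 0.208 in limma). The last, below background, lay at -0.30.

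The U2AF subunits went apart. U2af2, which binds the pyrimidine tract, had 7.60, 7.43 and 7.78 in CD11c- and 7.29, 7.41 and 7.11 in CD11c+ cells, without overlap at a difference of -0.34 (adjusted p = 0.531 in limma). U2af1, which reads the AG at the end of the intron, had 8.09, 6.98 and 8.07 in CD11c- and 8.01, 7.85 and 7.93 in CD11c+ cells. Its difference of 0.22 rested on the low CD11c- value of mouse C and was -0.11 without that mouse. The difference between the subunits was not tested.

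Among the snRNP proteins the pair particular to U2 had the lowest differences by their representing probe sets. Snrpa1, the U2 A′ protein, had 7.20, 7.29 and 7.17 in CD11c- and 6.87, 6.87 and 5.87 in CD11c+ cells. The fractions did not overlap, and mouse D gave the largest step, so that the log2 difference of -0.68 (standard error 0.24, 95% interval -1.33 to -0.04, adjusted p = 0.346 in limma) became -0.38 without it. Its other probe sets lay at -0.72 and -0.10, both above background in both fractions. Snrpb2, the U2 B″ protein, had 8.39, 7.80 and 7.74 in CD11c- and 7.80, 7.67 and 7.25 in CD11c+ cells, a difference of -0.40 with overlap. The U1 proteins Snrpa and Snrpc lay at -0.22 and -0.06, and Snrnp70, a further U1 protein outside the 49, at -0.30. Snrpc had 7.52, 7.46 and 7.31 in CD11c- and 7.58, 7.27 and 7.27 in CD11c+ cells. Snrpa had 7.58, 7.25 and 7.45 in CD11c- and 7.68, 7.39 and 6.55 in CD11c+ cells, and its difference was 0.12 without mouse D. Whether U1 and U2 proteins differ was not tested.

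The Sm proteins form a ring around most spliceosomal snRNAs and are needed in equal numbers. Snrpd2 had 9.42, 9.08 and 8.88 in CD11c- and 8.99, 8.81 and 8.57 in CD11c+ cells, a difference of -0.33, with each mouse between -0.43 and -0.26. Snrpd3 had 10.11, 10.20 and 10.18 in CD11c- and 10.06, 10.06 and 9.66 in CD11c+ cells, without overlap at -0.24. Snrpf had 5.66, 6.08 and 6.04 in CD11c- and 6.57, 6.55 and 5.89 in CD11c+ cells, the highest difference of this group at 0.41 with mouse D opposite. Snrpd1 had 6.81, 6.41 and 6.84 in CD11c- and 7.23, 6.52 and 6.59 in CD11c+ cells. Neither gene kept its fractions apart. Snrpb, Snrpe and Snrpg lay at -0.06, -0.10 and -0.16. Snrpn, an imprinted relative of Snrpb found mostly in brain, had 6.18, 5.95 and 5.86 in CD11c- and 5.82, 5.91 and 6.35 in CD11c+ cells, a little above the background level in both fractions. Ring proteins therefore lay on both sides of 0, from -0.33 to 0.41, with no call among them.

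**Figure D3:**
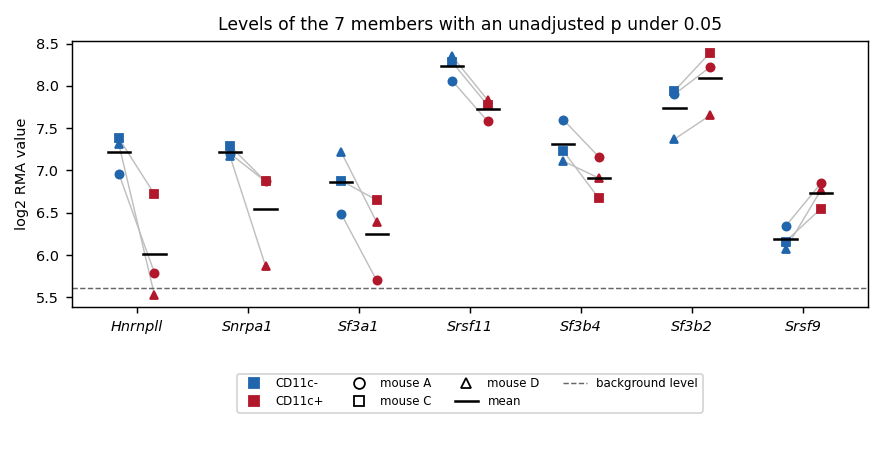
Log2 RMA values (vertical axis) of the 7 splicing factor genes with an unadjusted p under 0.05 in limma (horizontal axis), in CD11c- (blue) and CD11c+ (red) cells. Marker shape gives the mouse, grey lines join the arrays of a mouse, black bars give the mean of 3 mice and the dashed line the background level of 5.61. Sf3b2 and Srsf9 were higher and the other 5 lower in each mouse, and none passed after adjustment.

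Differences between the probe sets of a gene were near the background of all genes. The 49 members have 120 probe sets, of which 33 members have more than 1. In 18 of these 33 genes every probe set had a difference at or below 0, in 15 the probe sets lay on both sides of 0, and in 0 all lay at or above it. Of all probe sets on the array, 66.9% had a difference below 0. The same count was not made over the 7180 genes with more than 1 probe set, so whether the tilt is particular to the members is not known. None of the 120 passed an adjusted p of 0.05 in limma (lowest adjusted p = 0.105). At an unadjusted p under 0.05, 16 were lower (13.3%) and 2 were higher (1.67%), and probe sets of the same gene are not independent. Of all probe sets 0.957% were called higher and 0.168% lower, and 6.28% and 7.21% were so at an unadjusted p under 0.05. Whether the difference depends on the probe set was tested within each gene, as the difference between each other probe set and the representing probe set. Of 71 such pairs in the members, 0 passed (6, or 8.45%, at an unadjusted p under 0.05, lowest adjusted p = 0.324), where 0.00847% of 11801 pairs of all genes passed and 8.7% were under that unadjusted p. The signs were opposite in 33.8% of the members' pairs and in 32.5% of all pairs, and where both probe sets were above background in 34.9% of 43 and 27.4% of 3382 pairs. These shares were not tested. Sources used here do not place the probe sets on exons.

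Hnrnpdl had the widest gap between probe sets above background, from -0.15 by its representing probe set to -1.05 (adjusted p = 0.126 in limma) by another, a gap of -0.90 (adjusted p = 0.463). The representing probe set of Srsf1 had a difference of 0.24, and the others above background had -0.45 and -0.41. Its last probe set, at -1.05, was below background in both fractions. Srsf1 had a difference of -0.42 when its probe sets were averaged, so its direction depends on the choice. Srsf2 lay at -0.02 by its representing probe set, and its other probe sets at -0.60, -0.70, -0.16 and -0.25 were all below 0. The probe set of Srsf2 at -0.70 had 8.87, 8.03 and 7.54 in CD11c- and 8.35, 7.59 and 6.39 in CD11c+ cells, lower in 3 of 3 mice. In Hnrnpul2 the probe sets had 0.13 and -0.75, a gap of -0.88 (adjusted p = 0.538).

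**Figure D4:**
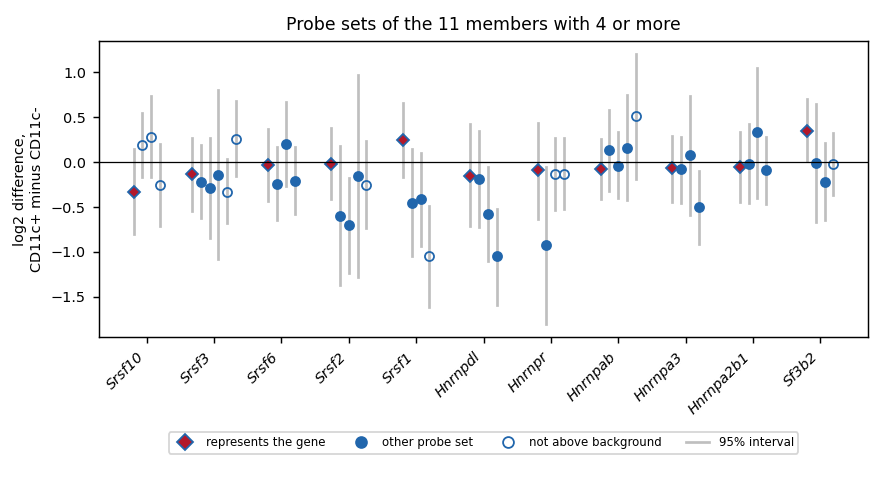
Log2 difference between CD11c+ and CD11c- cells (vertical axis) of every probe set of the 11 splicing factor genes with 4 or more (horizontal axis). Red diamonds mark the probe set that represents the gene, open circles those not above background in either fraction, and grey bars the 95% interval. The probe sets of Srsf1 run from -1.05 to 0.24 and those of Hnrnpab from -0.08 to 0.51.

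The rest of the splicing machinery held no call either. Of 143 other measured genes in 9 lists (SR protein kinases, SR-related proteins, other U1 and U2 factors, the U4/U6.U5 particle, the PRP19 complex, the exon junction complex, the minor spliceosome, snRNP assembly and other regulators), 0 passed an adjusted p of 0.05 in limma. At an unadjusted p under 0.05 they counted 2 higher and 15 lower, against 7.38% and 7.44% of all genes. Their median difference was -0.14, and 99 of the 143 were below 0 (69.2%). The medians of the lists ran from -0.34 for the exon junction complex to 0.01 for the minor spliceosome, and single genes from -0.99 to 0.70. Gemin2, which binds Sm proteins during snRNP assembly, had a difference of -0.73 (adjusted p = 0.112) and was below background in both fractions. Tgs1, which methylates the cap of snRNAs, had 7.39, 7.24 and 7.06 in CD11c- and 8.01, 7.78 and 7.99 in CD11c+ cells, without overlap at 0.70 (adjusted p = 0.15). Tia1, which helps U1 to weak splice sites, had 7.12, 6.72 and 6.94 in CD11c- and 6.13, 6.28 and 6.27 in CD11c+ cells, without overlap at -0.70 (adjusted p = 0.178).

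Among the kinases that phosphorylate SR proteins, the differences ran from -0.53 for Dyrk1a to 0.24 for Clk3. Tra2b, an SR-like activator, had 6.63, 5.97 and 5.71 in CD11c- and 6.20, 6.93 and 6.95 in CD11c+ cells, a difference of 0.59 with mouse A opposite, and 0.27 without mouse D or 1.10 without mouse A. Scaf1 lay at the other end of its list at -0.59, which rested on mouse A and was -0.02 without it. In the U4/U6.U5 particle Prpf4 had a difference of -0.60 and Prpf31 one of 0.47. Leaving out a mouse in turn, the difference ran from -0.69 to -0.24 for Dyrk1a, from 0.02 to 0.43 for Clk3, from -0.86 to -0.45 for Prpf4 and from 0.16 to 0.98 for Prpf31. None of these passed the test (adjusted p = 0.358 or higher in limma).

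RNA quality was read from the control probe sets at the 3′ and the 5′ end of transcripts. For actin the 3′ minus 5′ log2 value had a mean of -0.30 in CD11c- and -0.25 in CD11c+ cells, and for Gapdh -0.48 and -0.48. For the transferrin receptor it was -2.24 and -1.54, with the fractions apart, and for pyruvate carboxylase -1.03 and -1.07 with overlap, so that 1 of 4 controls separated the fractions. The part of this in the splicing factor values was not tested.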

How the data were processed

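RNA of 300 sorted cells per sample was amplified, labelled and hybridised by the authors to Affymetrix HT MG-430 PM arrays, 6 in all. The deposited values are log2 signals that the authors had obtained by RMA. RMA and limma are named in the submitters' notes without a version. RMA brings the arrays to nearly one distribution, so that total RNA per cell cannot be compared, and amplifying so few cells may add noise to dim probe sets.

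All 45141 probe sets were fitted in limma 3.58.1 (R 4.3.3), with a term for the mouse. P-values are two-sided and were adjusted by Benjamini-Hochberg over the whole table. The labels assign both arrays of a pair to a mouse. Within pairs, deviations from the group mean correlated at 0.122, 0.0758 and 0.109, and across mice at -0.086 to -0.0217. The precision is limited by the number of arrays. A single gene is named for 28898 probe sets in the platform annotation, more than 1 for 551, and none for 15692. The 8 probe sets naming a splicing factor beside another gene were left out (log2 differences from -0.14 to 0.39). The members and lists were chosen with earlier results of these data known. Every member could be named, with all array values for those at either end of each role, and other splicing genes at the ends of their lists. Hnrnpa1, Hnrnpab, Sf3a3, Snrpa, Snrnp70 and the extra probe sets of Srsf2, Sf3b6, Hnrnpa1, Hnrnpab and Hnrnpa3 were given after their values were seen. Alternatives were the block, the normalization, a filter on dim probe sets, the probe set of a gene, the variance model, the threshold and leaving out each mouse.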

Additional observations from a re-analysis of the deposited data

How the results depend on the processing

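The number of members called was 0 in limma under all 12 alternatives, with 3 to 9 members at an unadjusted p under 0.05, and the median log2 difference of the members stayed between -0.17 and -0.01, or between -0.16 and -0.05 without a mouse in turn. Without the mouse block (no replicate block) 0 members were higher, 0 lower and 0 of their probe set pairs differed, and the median was -0.10. The block changed no call of a member. The lowest adjusted p of any member was 0.0538, for Sf3b1 with a trended variance. Over all probe sets the calls were 432 higher and 76 lower, 684 and 211 without the block, 343 and 41 after cyclic loess and, leaving out mouse A, 0 in both directions in limma (unadjusted p under 0.05 in 2796 and 2767), 175 and 2 leaving out mouse C, 348 and 44 leaving out mouse D.
Of 660 recomputed values of the named genes 46 changed sign, in 28 genes whose reported differences were at most 0.35 in size, and none of the 660 passed. After cyclic loess the log2 difference became Srsf6 0.05, Srsf2 0.07, Hnrnpul1 0.00, Hnrnpab 0.02, Hnrnpa3 0.02, Hnrnpa2b1 0.03, Hnrnpl 0.04, Sf3b5 0.02, Snrpb 0.03 and Snrpc 0.02. With arrays centred on their median the log2 difference became Srsf2 0.01. Averaging all probe sets of a gene, the log2 difference became Srsf1 -0.42, Hnrnpc 0.11, Hnrnpab 0.14, Hnrnpa2b1 0.04, Hnrnpul2 -0.31, Sf3b5 0.06, Snrpb 0.14 and Snrpn -0.07. With probe sets without a suffix only the log2 difference became Srsf10 0.28, Srsf1 -1.05, Hnrnpc 0.22, Hnrnpa2b1 0.33 and Sf3b2 -0.01. Without a mouse in turn the values that changed sign ran from -0.57 to 0.40 for Hnrnpa0, from -0.17 to 0.02 for Hnrnpa2b1, from -0.12 to 0.01 for Hnrnpa3, from -0.28 to 0.14 for Hnrnpd, from -0.40 to 0.01 for Hnrnpdl, from -0.11 to 0.01 for Hnrnpl, from -0.28 to 0.12 for Hnrnpr, from -0.18 to 0.25 for Sf3a2, from -0.76 to 0.19 for Sf3a3, from -0.33 to 0.14 for Sf3b5, from -0.22 to 0.03 for Sf3b6, from -0.40 to 0.12 for Snrpa, from -0.12 to 0.00 for Snrpc, from -0.07 to 0.27 for Snrpd1, from -0.24 to 0.11 for Snrpe, from -0.20 to 0.22 for Snrpn, from -0.12 to 0.09 for Srsf2, from -0.45 to 0.04 for Srsf4, from -0.16 to 0.04 for Srsf6 and from -0.11 to 0.39 for U2af1. The causes were not tested.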
